A study of Arabidopsis thaliana with 26 samples.

Results

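Quiescent centre (QC) cells of the Arabidopsis root were compared with whole root meristems within the jkd mutant, to see which features of the QC are present without JACKDAW (JKD). The comparison holds 6 of the 26 arrays of the series, 3 of sorted jkd QC cells and 3 of jkd meristems, chosen by the genotype and tissue named in the titles and source names. Of the 16384 probe sets on the table, 11469 passed the filter on low values and were tested. The same comparison in wild type, on 6 other arrays, was fitted in the same way and set beside it.

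QC cells came from roots 3 days after germination, which were turned into protoplasts and sorted for green fluorescent protein driven by the WOX5 promoter, so a cell counts as QC through the activity of that promoter. Titles name the jkd-4 allele for the mutant QC and Col-0 for the wild type QC, which was grown next to the mutant. Meristems, likewise 3 days after germination, were excised and extracted whole, and for genotype their labels name only jkd and WT. The study also holds auxin-treated cells and a separate wild type QC harvest, of which only the latter is used here, as an alternative. The descriptions of the jkd QC arrays cite an older cell type profile, and the source name of jkd QC array 2 reads "jks", so the genotype rests on the titles and the other source names. QC cells were protoplasted and sorted and meristems were not, in both genotypes, so tissue and handling cannot be told apart. In such pooled RNA, fewer cells of a type and less RNA per cell cannot be told apart either.

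The QC is a small group of rarely dividing cells at the root tip that keeps the stem cells around it undifferentiated. Its position depends on auxin, on PLETHORA factors and on the GRAS factors SHORT-ROOT (SHR) and SCARECROW (SCR). JKD is a zinc finger protein of the IDD family that binds SHR and SCR, restricts SHR movement and helps to keep SCR expressed in the ground tissue and the QC.

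The JKD probe set (AT5G03150) checks the genotype labels. Its signals were 1.37, 24.86 and 6.6 on the jkd QC arrays and 11.28, 13.35 and 6.23 on the jkd meristem arrays. Wild type gave 68.67, 73.98 and 108.67 in the QC and 201.24, 172.76 and 184.47 in the meristem. All 6 mutant arrays lay below all 6 wild type arrays. On the log2(signal + 16) scale used throughout, mutant minus wild type was -1.96 in the QC and -2.95 in the meristem. With a pseudocount of 1 in place of 16 it was -3.42 and -4.11. The labels do not place the jkd-4 lesion relative to the probe set, and JKD was below the filter in the jkd fit.

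Median signals were 65.52 to 67.5 on the jkd QC arrays and 75.24 to 84.6 on the jkd meristem arrays, and correlations between replicates were 0.908 to 0.918 and 0.984 to 0.986. Plastid and mitochondrial transcripts took 3.63%, 3.54% and 4.51% of the summed signal of the jkd QC arrays, against 0.72%, 0.72% and 0.68% of the jkd meristem arrays. Nothing in the labels ties the 3 arrays of a group to separate batches of plants, so each p-value reflects array-to-array spread, which may be purely technical.

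In jkd, 5385 of 11469 genes (47.0%) differed between QC and meristem at an adjusted p under 0.05 (limma, Benjamini-Hochberg), 2179 higher in the QC (19.0%) and 3206 lower (28.0%). The QC arrays lay wholly above the meristem arrays for 2710 genes (23.6%) and wholly below for 3925 (34.2%). The median difference over all genes tested was -0.25, so a list needs to be read against that shift and not against 0. After quantile normalization the median was -0.14, with 2283 genes higher and 2727 lower. Of the 5385 genes, 3339 also passed without any single array of the 6, and 1380 of these were higher in the QC. Without any 1 of the 3 meristem arrays, the count fell to between 3837 and 3960. Wild type lists are to be read against wild type shares of 21.8% higher and 27.8% lower and a median of -0.15.

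Genes of the root stem cell niche gave a mixed picture in the jkd QC. Of 23 niche genes on the table, 17 were tested, 7 of them higher in the QC, 2 lower and 8 not past the threshold, with a median of 0.08 against -0.25 for all genes. Over all genes tested, 19.0% were higher and 28.0% lower. Of the 9 calls, 8 were also made without any single array. AIL5, AIL7, ANT, TEL2, NTT and BRL3 were below the filter. In wild type, 21 passed the filter, 11 of them higher and 3 lower, with a median of 1.03. The 17 and the 21 are not the same set of genes, so the 2 medians are not like for like. A direct test of jkd against wild type covered 20 niche genes, with a median of -0.14 against -0.09 for all genes. There 2 of the 20 had an unadjusted p under 0.05, against 7.93% of all genes, and the lowest adjusted p was 0.562 (limma).

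The PLETHORA family sets the position of the niche by its dose, and the 3 members tested were higher in the jkd QC. BABY BOOM (BBM, AT5G17430) gave 318.45, 431.42 and 332.68 in the jkd QC and 36.62, 41.19 and 29.54 in the jkd meristem. The groups lay far apart, with a difference of 2.86 ± 0.31 (SE, adjusted p = 5.15e-05, limma). PLT1 (AT3G20840) gave 144.31, 262.13 and 368.37 in the QC and 52.46, 95.18 and 42.59 in the meristem, a difference of 1.75 ± 0.40 (adjusted p = 0.00503, limma). The QC arrays again all lay above the meristem arrays, though QC array 1 was only a little above meristem array 2. AIL6, also called PLT3, gave 1155.91, 1273.96 and 1464.73 against 418.6, 575.19 and 516.93, a difference of 1.34 ± 0.24 (adjusted p = 0.00119, limma). In wild type these genes differed in the same direction, by 1.92, 2.35 and 1.17. AIL7 fell below the filter in jkd, with 67.2, 42.88 and 26.58 in the QC and 2.28, 7.53 and 1.41 in the meristem, groups that do not overlap. The same held for NTT, a zinc finger gene of the distal stem cells, at 29.08, 54.97 and 58.13 against 1.08, 0.85 and 6.06.

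A further 4 niche genes were higher in the jkd QC, namely ERF115, MYB56, NAC13 and TPST. ERF115, an ethylene response factor that promotes division of QC cells, gave 248.13, 236.7 and 106.89 in the QC and 3.79, 11.08 and 0.42 in the meristem. Its meristem signals lay near the bottom of the scale, and the difference was 3.29 ± 0.40 (adjusted p = 0.000117, limma), with 3.29 in wild type. MYB56, known as BRAVO and a repressor of QC division, gave 153.54, 95.32 and 186.73 in the QC and 21.46, 26.91 and 39.66 in the meristem. Its difference was 1.81 ± 0.36 (adjusted p = 0.00218, limma), beside 2.60 in wild type. NAC13, a factor of the mitochondrial stress response, was higher by 1.93 ± 0.35 (adjusted p = 0.00121, limma). TPST, the sulfotransferase that activates root meristem growth factor peptides, was higher by 1.51 ± 0.45 (adjusted p = 0.0174, limma), a call lost without jkd QC array 2 (1.16) or jkd meristem array 2 (1.08).

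Other niche genes were lower in the jkd QC or did not pass. HAN, a GATA factor, gave 75.3, 75.16 and 125.13 in the QC and 469, 493.41 and 464.6 in the meristem, a difference of -2.22 ± 0.31 (adjusted p = 0.000243, limma). The prohibitin gene PHB3 was lower at -1.33 ± 0.25 (adjusted p = 0.00157, limma), and both were lower in the wild type QC too (-1.72 and -1.48). AGL42, a MADS-box gene used as a QC marker, gave 26.36, 47.27 and 547.63 in the jkd QC and 308.17, 262.46 and 414.55 in the jkd meristem. A single QC array exceeded the meristem and the other 2 lay far below it, and the difference of -1.56 ± 0.77 did not pass (adjusted p = 0.116, limma). TEL1, an RNA-binding protein gene of the niche, gave 30.76, 3.19 and 112.77 against 21.79, 21.86 and 9.88, which also overlap. ACR4, CLE40, CRN, TPL, TAA1 and WIP4 did not pass either, with differences between -0.85 and 0.08. The label QC comes from sorting by WOX5 promoter activity and from the titles. WOX5 and PLT2 were not analysed here, so only the markers above could be set beside it. Of these, AGL42 and TEL1 were not uniformly high.

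**Figure D1:**
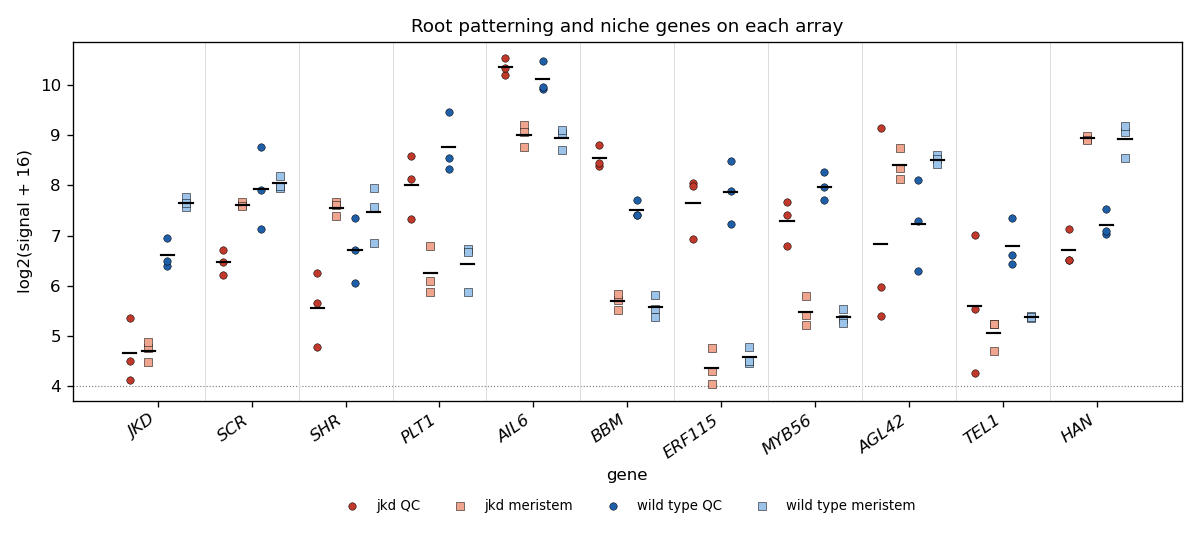
Signals of JKD, its GRAS partners and niche genes, as log2(signal + 16), on the 3 arrays of each group; bars are means and the dotted line is a signal of 0. BBM, PLT1, AIL6, ERF115 and MYB56 lie higher in the QC in both genotypes, HAN lies lower, and AGL42 and TEL1 scatter widely across the jkd QC arrays.

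SHR and SCR, the partners of JKD, were lower in the jkd QC than in the jkd meristem. SHR (AT4G37650) gave 11.5, 34.65 and 60.59 in the jkd QC and 186.57, 178.42 and 151.78 in the jkd meristem. Every QC array lay under every meristem array, and the difference was -1.98 ± 0.40 (adjusted p = 0.00253, limma). In wild type it was -0.75 (adjusted p = 0.131, limma), with overlapping groups at 88.54, 148.11 and 50.83 against 231.34, 174.69 and 100.25. SCR (AT3G54220) gave 72.45, 89.65 and 58.04 in the jkd QC and 178.77, 187.77 and 175.52 in the jkd meristem. These groups do not overlap, and the difference was -1.15 ± 0.31 (adjusted p = 0.0107, limma), a call lost without jkd meristem array 1 (-1.16) or array 2 (-1.13). In wild type SCR gave 225.03, 417.65 and 124.99 in the QC and 276.49, 230.05 and 236.44 in the meristem, a difference of -0.10. The direct test of jkd against wild type gave -1.05 ± 0.49 for SCR (unadjusted p = 0.0467, adjusted p = 0.618, limma) and -1.23 for SHR (unadjusted p = 0.0518, adjusted p = 0.634, limma), so a genotype difference was not established for either.

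Of 15 tested genes in the SHR, SCR and JKD network, 2 were higher and 6 lower in the jkd QC, against 19.0% and 28.0% of all genes. The median was -0.48, against -0.25 for all genes. In wild type 3 of 15 were higher and 5 lower. HAM2 and HAM3, GRAS factors of the HAIRY MERISTEM group, went opposite ways. HAM2 was lower at -2.07 ± 0.41 (adjusted p = 0.00219, limma) and HAM3 higher by 1.53 ± 0.30 (adjusted p = 0.00215, limma), with -1.55 and 1.36 in wild type. In the separate wild type QC harvest both were lower than in the wild type meristem, HAM2 at -1.16 and HAM3 at -0.97 (adjusted p = 0.000585 for HAM3, limma). IDD14, a family member of JKD, was lower (-1.88 ± 0.41), as was the brassinosteroid oxidase gene BR6OX2 (-1.51 ± 0.31). MYB36, which switches on endodermal differentiation, was lower at -1.44 ± 0.38, a call lost without jkd meristem array 3 (-1.30). RBR1, the retinoblastoma protein that restrains QC division, was higher by 0.98 ± 0.32, a call lost without jkd QC array 1 (0.76) or jkd meristem array 1 (0.79) or 3 (0.94). NUTCRACKER (NUC) at -0.48, CYCD6;1 at 0.88, SCL23 at -0.08, SNE at -0.06, SEU at 0.54, LUG at 0.74 and IDD16 at -0.62 did not pass.

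Genes of DNA replication and mitosis were lower in the jkd QC more often than not, as in the wild type QC. Of 12 tested genes of DNA replication and S phase, 8 were lower, against 28.0% of all genes, and the other 4 did not pass, with a median of -0.99. Wild type had 9 of 13 lower and a median of -1.05. Of the 8 calls, 4 were also made without any single array. MCM3, a subunit of the replicative helicase, gave 347.07, 167.82 and 166.84 in the QC and 961.66, 801.43 and 1109.82 in the meristem. The QC arrays held far less, at -2.07 ± 0.33 (adjusted p = 0.000567, limma). CDC45, a partner of that helicase, was lower at -2.13 ± 0.31 and MCM2 at -1.62 ± 0.30, beside -1.80 and -1.49 in wild type.

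Of 18 tested probe sets of G2, mitosis and cytokinesis, 10 were lower, 7 of these also without any single array, and 2 higher, 0 of these also without any single array, with a median of -1.16. Among all genes, 28.0% were lower and 19.0% higher. Wild type gave the same counts, with a median of -0.75. The mitotic cyclin CYCB1;1 gave 74.25, 23.48 and 48.38 in the jkd QC and 295.51, 154.25 and 268.76 in the jkd meristem, a difference of -2.01 ± 0.40 (adjusted p = 0.00217, limma). CYCB1;3 (-1.84), CYCA1;1 (-1.75), CYCB2;2 (-1.72) and the Aurora kinase AUR1 (-1.57) were lower too. In the separate wild type QC harvest CYCA1;1 was at 0.04, while CYCB1;3, CYCB2;2 and AUR1 were lower (-2.39, -1.12 and -1.81). CDC20.1, an activator of the anaphase-promoting complex, was lower at -2.77 ± 0.31, though its probe set may also detect related transcripts. POK2, a kinesin that positions the division plane, was higher at 40.42, 50.07 and 76 against 11.02, 2.56 and 9.51, and was below the filter without jkd QC array 3. MYB3R1, which controls mitotic genes, has probe sets that went opposite ways (1.67 and -1.10), calls that were lost without jkd meristem array 2 (1.54 and -1.11), so its direction is uncertain.

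D-type cyclins start the cell cycle, and the 3 of 7 that passed were lower in the jkd QC, against 28.0% of all genes called lower. CYCD3;1 gave 33.35, 26.36 and 9.35 against 155.37, 196.89 and 295.84, a difference of -2.58 ± 0.38 (adjusted p = 0.000408, limma), and -2.58 in wild type. CYCD3;3 was lower at -2.01, and CYCD3;2 at -1.33, the latter a call lost without jkd QC array 3 (-0.89) or jkd meristem array 3 (-1.17). In the separate wild type QC harvest CYCD3;3 did not pass (-0.36), while CYCD3;1 (-1.8) and CYCD3;2 (-0.99) were lower. Of 11 inhibitors and endocycle activators, 4 were lower and 1 higher, against 28.0% and 19.0% of all genes. CCS52A1, which starts endocycles, was lower at -2.89 ± 0.34 (adjusted p = 8.85e-05, limma) and the cyclin-dependent kinase inhibitor KRP7 at -1.58 ± 0.36. The exception was SMR5, an inhibitor induced by DNA damage and oxidative stress, with 150.62, 137.61 and 188.1 in the jkd QC and 1.6, 13.93 and 5.92 in the jkd meristem. Its difference was 2.94 ± 0.35 (adjusted p = 9.17e-05, limma). In wild type 95.75, 9.96 and 73.41 stood against 15.41, 5.59 and 12.87, which overlap (1.24, adjusted p = 0.067, limma), and the test between genotypes gave 1.70 (unadjusted p = 0.0167, adjusted p = 0.541, limma).

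Of 31 auxin response probe sets tested, 8 were higher and 7 lower in the jkd QC, shares near those of all genes (19.0% and 28.0%). Without any single array, 4 and 2 of these calls were also made. The median was -0.42, and wild type had 12 higher, 7 lower and a median of 0.49. In the test between genotypes the median of the 31 was -0.28, against -0.09 for all genes. There 4 had an unadjusted p under 0.05, all with the lower difference in jkd, against 5.75% of all genes, and the lowest adjusted p was 0.169 (limma). IAA30, an Aux/IAA repressor, gave 716.86, 1412.61 and 1102.72 in the jkd QC and 46.49, 49.55 and 46.7 in the jkd meristem. It had the largest difference of the list, 4.05 ± 0.32 (adjusted p = 7.07e-06, limma), and 3.67 in wild type. IAA19 (2.69 ± 0.32) and IAA27 (2.09 ± 0.46) were also higher, and the repressive response factor ARF2 was higher on both of its probe sets (2.71 and 1.26), of which the weaker call was lost without jkd meristem array 1 (1.12). Among the receptors, AFB1 was lower at -1.94 ± 0.29 (adjusted p = 0.000386, limma). AFB3 (-1.76), AFB2 (-1.51) and TIR1 (-0.83) were lower as well, calls lost without jkd meristem array 2 for AFB3 (-1.59), array 3 for AFB2 (-1.31), and array 1 (-0.78) or array 2 (-0.80) for TIR1. ARF5, the response factor MONOPTEROS, did not pass in jkd (0.03) and was higher in the wild type QC (1.09), and the test between genotypes gave -1.06 (unadjusted p = 0.0271, adjusted p = 0.573, limma).

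Of 10 auxin synthesis and transport genes tested, 2 were higher and 4 lower in the jkd QC, against 19.0% and 28.0% of all genes, with a median of -0.46. The influx carrier gene LAX3 gave 10.75, 9.84 and 0.7 in the jkd QC and 232.13, 248.29 and 231.4 in the jkd meristem. The mutant QC lay near the bottom of the scale, and the difference was -3.49 ± 0.34 (adjusted p = 2.62e-05, limma). In the wild type QC it gave 93.09, 60.23 and 34.6, a difference from the meristem of -1.51, and the test between genotypes gave -1.98 (unadjusted p = 0.000707, adjusted p = 0.225, limma). The efflux carrier gene PIN2 was lower at -2.72 ± 0.28 (adjusted p = 3.62e-05, limma), the transporter gene ABCB19 at -1.69 ± 0.27 and the synthesis gene YUC5 at -1.85 ± 0.40. YUC5 did not pass in wild type (-0.56) and was higher in the separate wild type QC harvest (1.32), where PIN2 was at -1.51 and ABCB19 at -0.24. The synthesis genes YUC8 (1.02) and YUC1 (1.03) were higher, calls lost without jkd meristem array 1 (1.04 and 1.04) or array 3 (0.86 and 0.98), and for YUC1 also without array 2 (1.08). YUC1 was below the filter without any 1 of the jkd QC arrays.

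Genes of other hormones were mixed, and each count is to be read against the 28.0% of all genes called lower and the 19.0% called higher. Of 10 cytokinin response probe sets tested, 4 were lower in the jkd QC, 2 of these also without any single array. The other 6 did not pass. The 4 were led by the type-B regulator ARR10 (-2.48 ± 0.40) and the type-A regulator ARR9 (-2.15 ± 0.42). Of 11 brassinosteroid genes, 6 were lower and 3 higher, with a median of -1.08. Without any single array, 4 and 1 of these calls were also made. The synthesis genes CPD (-2.58 ± 0.39), DWF4 (-2.08 ± 0.32) and DWF1 (-1.59 ± 0.21) were lower and BIN2, the kinase that blocks the pathway, was higher (1.39 ± 0.24), all 4 in the same direction in wild type. In the separate wild type QC harvest DWF4 was at -0.04, while CPD and DWF1 were lower (-1.44 and -0.64). The receptor gene BRI1 gave 606.21, 1277.79 and 1979.46 in the jkd QC and 3149.43, 3468.56 and 2367.28 in the jkd meristem. Its difference of -1.34 ± 0.37 (adjusted p = 0.012, limma) was lost without jkd meristem array 2 (-1.23), and wild type gave -0.12. The test between genotypes gave -1.23 for BRI1 (unadjusted p = 0.0145, adjusted p = 0.538, limma). Of 13 gibberellin genes, 5 were higher and 4 lower, the latter a share near that of all genes. Only 2 and 3 of these calls were also made without any single array. GA2OX2, which inactivates gibberellin, was higher by 3.06 ± 0.36, and the synthesis genes GA20OX2 (-2.70 ± 0.36) and GA20OX3 (-2.04 ± 0.33) and the DELLA gene RGL2 (-2.11 ± 0.39) were lower.

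**Figure D2:**
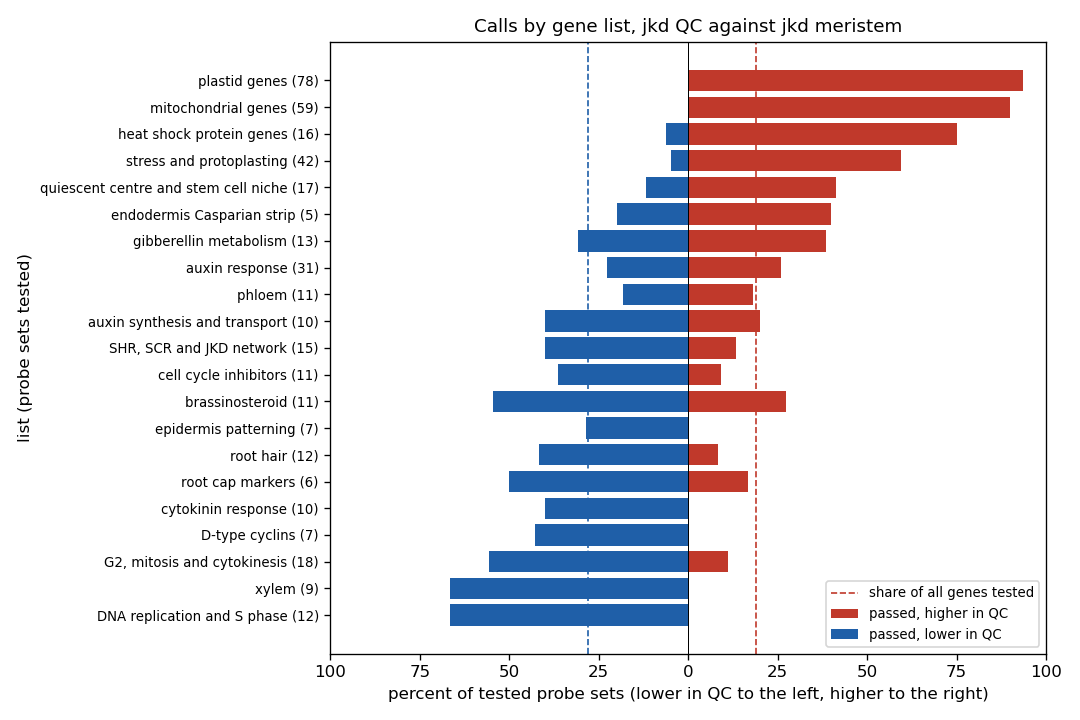
Percent of tested probe sets in each list that passed as higher (right) or lower (left) in the jkd QC than in the jkd meristem; dashed lines are the shares over all genes tested, 19.0% and 28.0%, and numbers in brackets are probe sets tested. Organellar, heat shock and stress lists stand at the top with mostly higher calls, replication and xylem lists at the bottom with only lower calls.

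Markers of neighbouring cell types differed from list to list between the jkd QC and the whole meristem, and each count is to be read against the 19.0% of all genes called higher and the 28.0% called lower. The summed signal of 6 root cap genes was 391 to 431 in the jkd QC and 1300 to 1799 in the jkd meristem. It was 403 to 632 in the wild type QC and 1403 to 1983 in the wild type meristem. In the separate wild type QC harvest it was 1274 to 1535, so a low root cap sum was not seen in every QC harvest. In jkd, 3 of the 6 passed as lower. BRN1, a NAC factor of root cap maturation, gave 22.27, 44.69 and 52.61 against 679.94, 476.45 and 782.9. That is the largest difference of the list at -3.58 ± 0.35 (adjusted p = 2.61e-05, limma). BRN2 (-1.72) and the cellulase gene CEL3 (-2.10) were lower, COBL2 was higher (1.55), and SMB did not pass (-0.86).

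Of 7 epidermis patterning genes, 2 were lower in jkd, a share near the 28.0% of all genes. They were GL2, which blocks hair fate (-2.97 ± 0.45), and TRY (-1.61 ± 0.41). The list's summed signal was 1935 to 2078 in the jkd QC and 2789 to 3018 in the jkd meristem. In wild type it was 1841 to 3336 in the QC and 2699 to 3515 in the meristem, which overlap. The separate wild type QC harvest gave 1993 to 2248. Of 9 xylem genes tested in jkd, 6 were lower, 3 of these also without any single array, and the other 3 did not pass. Sums over 16 xylem probe sets were 442 to 702 in the jkd QC against 1370 to 1720 in the jkd meristem. In wild type they were 835 to 1101 in the QC against 1332 to 1758 in the meristem. The separate wild type QC harvest gave 1199 to 1516, which overlaps the wild type meristem. The differences that follow are those in jkd. REV, a class III homeodomain factor, was lower at -2.89 ± 0.46, the vessel regulator VND2 at -1.93 ± 0.35 and the cellulose synthase gene IRX5 at -1.78 ± 0.36. The 16 phloem probe sets summed to 863 to 909 against 885 to 996, and of 11 tested 2 were higher and 2 lower, neither share above that of all genes, with BAM3, a receptor of protophloem, the lowest at -2.69 ± 0.37. Casparian strip genes of the endodermis summed to 326 to 491 in the jkd QC and 269 to 434 in the jkd meristem, which overlap. They summed to 768 to 1432 in the wild type QC and to 478 to 799 in the wild type meristem, so the wild type meristem lay above the jkd meristem too, and to 2270 to 3147 in the separate wild type QC harvest. CASP2, a scaffold protein of the strip, gave 151.22, 8.21 and 125.35 against 2.01, 1.28 and 1.88 (2.23 ± 0.62, lost without jkd meristem array 2 at 2.21, and below the filter without jkd QC array 1 or 3). CASP4 was below the filter in jkd at 23.56, 19.65 and 1.63 in the QC, where the wild type QC gave 134.86, 106.06 and 66.48. FAR1, a suberin gene, gave 162.67, 283.75 and 95.4 in the jkd QC and 3.83, 9.51 and 4.8 in the jkd meristem (3.05 ± 0.41, adjusted p = 0.000203, limma). The part of other cell types in the QC results was not tested.

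Of 12 root hair genes tested, 5 were lower in the jkd QC than in the jkd meristem, against 28.0% of all genes, 1 was higher and 6 did not pass, with a median of -0.98. Wild type had 1 lower and 4 higher, against 27.8% and 21.8% of all genes, and a median of 0.10, against -0.15. No gene of the list passed the test between genotypes with equal array weights, while MRH2 passed with array weights (-3.10). RSL4, the factor that drives hair growth, gave 105.74, 46.53 and 47.43 in the jkd QC and 163.86, 273.4 and 234 in the jkd meristem, a difference of -1.58 ± 0.37 (adjusted p = 0.00551, limma), beside -0.01 in wild type. The wall genes EXP7 (-2.62), COBL9 (-2.50) and EXP18 (-2.28) and the kinase gene MRH1 (-1.85) were lower, and RHD2, an NADPH oxidase, was higher (1.78). MRH2, a kinesin, gave 178.74, 25.27 and 1.79 in the jkd QC but 669.45, 484.2 and 471.21 in the wild type QC, with 40.36 to 61.52 in the jkd meristem and 48.93 to 73.8 in the wild type meristem. PRP1, a proline-rich wall protein gene, gave 26.83, 3 and 82.91 in the jkd QC and 533.25, 167.51 and 325.61 in the wild type QC, which do not overlap. In the direct test, 7 of the 12 genes had an unadjusted p under 0.05, all with the lower difference in jkd, against 5.75% of all genes, but the lowest adjusted p was 0.274 (limma). The summed signal of the list was 1562 to 2492 in the jkd QC, 2014 to 3072 in the jkd meristem, 3250 to 7102 in the wild type QC and 1886 to 3480 in the wild type meristem.

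**Figure D3:**
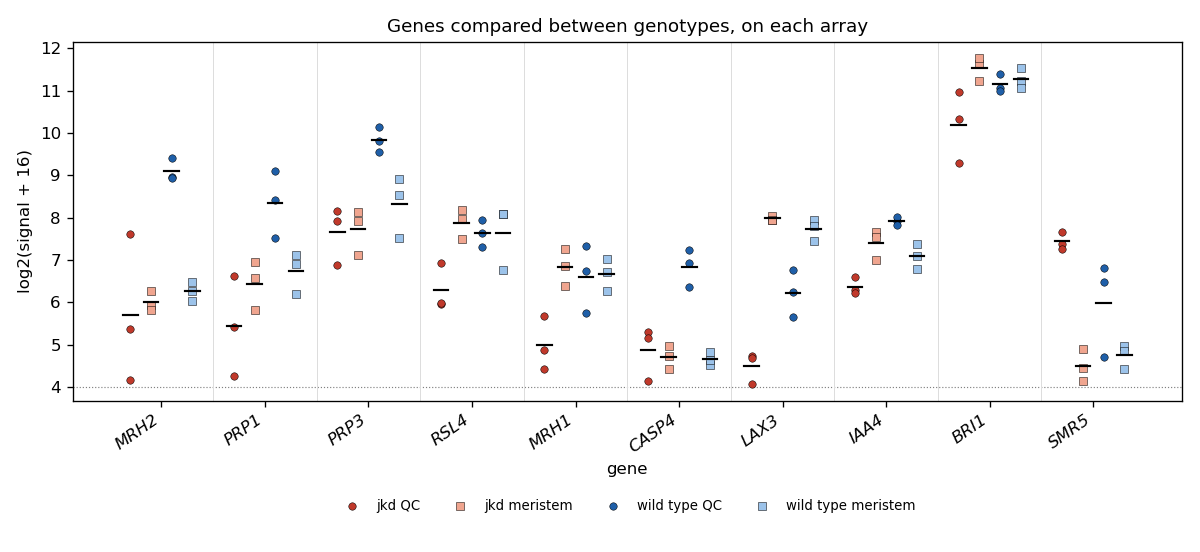
Signals of genes set against wild type in the text, as log2(signal + 16), on the 3 arrays of each group; bars are means and the dotted line is a signal of 0. MRH2, PRP1, PRP3 and CASP4 are higher in the wild type QC than in the jkd QC, LAX3 is lowest in the jkd QC, and SMR5 is highest there; none of them passed the test between genotypes with equal array weights.

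Genes of heat shock, jasmonate and other stress responses were among the highest in the jkd QC. Of 42 tested genes of the stress and protoplasting list, 25 were higher and 2 lower, against 19.0% and 28.0% of all genes. All 27 calls were also made without any single array, and the median was 1.88. In wild type 28 of 42 were higher and 4 lower, with a median of 1.62. The summed signal of the list was 104047 to 121626 in the jkd QC against 20048 to 25362 in the jkd meristem. Wild type gave 89462 to 98143 against 17722 to 22424, so the sorted cells lay above the meristems in both genotypes. The separate wild type QC harvest gave 49330 to 55950, so the size of this signal differed between the wild type QC harvests. The cause was not tested.

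HSP17.6II, a small heat shock protein gene, gave 10192.76, 7669.4 and 7907.76 in the jkd QC and 1.59, 45.58 and 7.63 in the jkd meristem. It had the largest difference of the genes named here, 8.18 ± 0.42 (adjusted p = 3.39e-07, limma), and 7.85 in wild type. The chaperone genes HSP90.1 (7.45 ± 0.28), HSP17.4 (6.71 ± 0.29), HSP23.6-MITO (6.17 ± 0.41), HSP70 (5.77 ± 0.25) and HSP101 (5.08 ± 0.28) were higher too. Of 16 genes with a symbol starting in HSP, a set chosen after the values were seen, 12 were higher and 1 lower. The shares over all genes were 19.0% and 28.0%, and the lower gene was HSP60-2 (-1.22 ± 0.26). The summed signal of the 16 HSP genes was 78093 to 111431 in the jkd QC and 63137 to 67000 in the wild type QC grown next to it. In the separate wild type QC harvest it was 23396 to 27323.

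All 7 tested JAZ genes, repressors that jasmonate induces, were higher in the jkd QC, against 19.0% of all genes, with a median of 2.96. They were also higher in the wild type QC. JAZ9 gave 763.41, 1087.66 and 1212.96 against 23.08, 40.04 and 19.32 (4.58 ± 0.33, adjusted p = 3.33e-06, limma). CYP94B3, which oxidises active jasmonate, was higher by 7.03 ± 0.27, and the transcription factor gene WRKY48 by 5.77 ± 0.32. TCH2, a touch-induced calmodulin-like gene, and WRKY11 went the other way at -3.22 ± 0.26 and -2.91 ± 0.33. Among the remaining genes with the highest differences were the lipid transfer protein gene LTP3 (6.56), the sulfur-deficiency gene LSU2 (6.23) and the wall enzyme gene XTH24 (5.67).

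Organellar transcripts were higher as well. Against 19.0% of all genes, 73 of 78 plastid genes tested were higher in the jkd QC, with a median of 2.39. The other 5 did not pass. Of 59 mitochondrial genes 53 were higher and the other 6 did not pass, with a median of 2.91. Wild type gave 73 of 78 and 53 of 58, with medians of 2.40 and 3.09. Mean log2 levels of the plastid genes were 9.67, 9.78 and 10.26 on the jkd QC arrays and 7.35, 7.26 and 7.11 on the jkd meristem arrays. Without heat shock, stress list and organellar genes, an alternative added after the data were seen, 5224 genes passed in jkd.

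**Figure D4:**
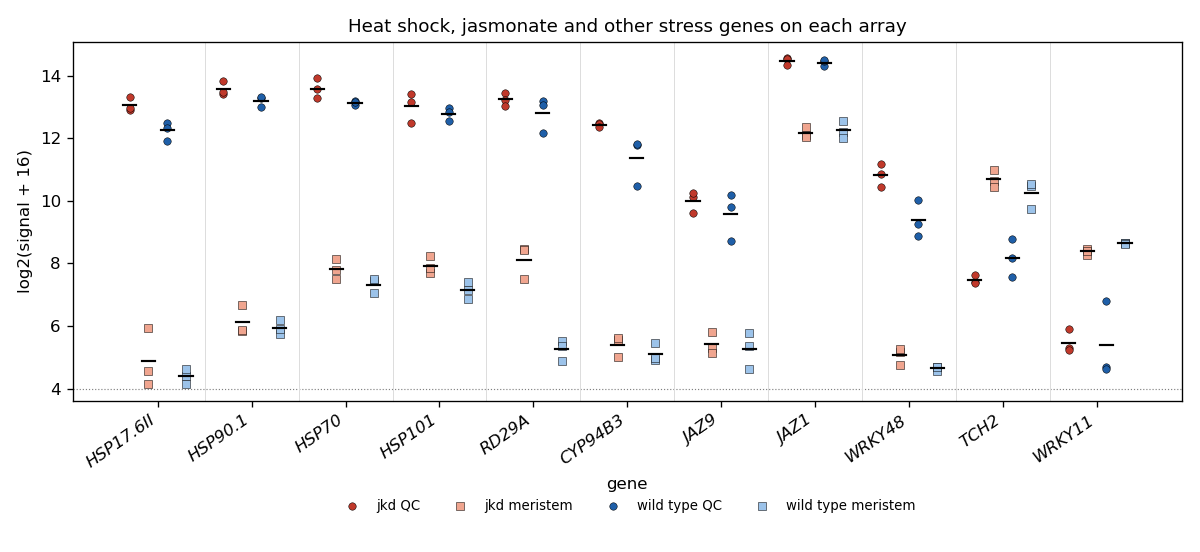
Signals of heat shock, jasmonate and other stress genes, as log2(signal + 16), on the 3 arrays of each group; bars are means and the dotted line is a signal of 0. All but TCH2 and WRKY11 lie far higher in the sorted QC than in the meristem, in jkd and in wild type alike.

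The genes with the lowest differences included growth and nutrition genes. The monocopper oxidase-like gene sks15 gave 27.94, 15.65 and 16.19 in the jkd QC and 655.24, 827.64 and 869.81 in the jkd meristem (-4.48 ± 0.31, adjusted p = 2.66e-06, limma). NLM1, an aquaporin of the NIP group, was lower at -4.46 ± 0.29, GMD1, of GDP-fucose synthesis, at -4.27 ± 0.59, and bHLH39, a factor of iron uptake, at -4.26 ± 0.39. The arabinogalactan protein gene AGP18 (-4.03 ± 0.37) and the brassinosteroid signalling kinase gene BSK2 (-3.76 ± 0.31) followed. F8H (-3.74), NS2 (-3.62) and hemb2 (-3.54) complete the lowest 10 with BRN1. All 10 were also lower in the wild type QC grown next to the mutant, between -5.59 and -2.11. In the separate wild type QC harvest the differences of sks15 (-0.47), GMD1 (-0.76), BSK2 (-0.83), hemb2 (-0.84) and NLM1 (-1.0) were much smaller. There bHLH39 was at -3.71, AGP18 at -3.28, F8H at -2.22 and NS2 at -2.22.

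Most genes that set the wild type QC apart from the meristem also did so in the mutant. In wild type 5683 of 11469 genes (49.6%) passed, 2499 higher in the QC (21.8%) and 3184 lower (27.8%). Of these, 1960 were at least 1 log2 unit higher in the QC, and 1883 of them were tested in jkd. There, 1842 had the same direction and 1487 passed as higher, 75.9% of the 1960 against 19.0% of all genes, and 0 passed in the opposite direction (limma; 2 had the opposite sign at an unadjusted p under 0.05). Their median difference was 1.62 in wild type and 1.58 in jkd. Of 2353 genes at least 1 log2 unit lower in the wild type QC, 1955 passed as lower in jkd (83.1%, against 28.0% of all genes), 0 passed as higher (limma; also 0 at an unadjusted p under 0.05), and the medians were -1.46 and -1.61. Looked up the other way, 82.1% of the 1891 genes high in the jkd QC passed in the wild type QC. Without heat shock, stress list and organellar genes, 1336 of 1805 high genes (74.0%) passed in jkd.

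Against the wild type meristem, the separate wild type QC harvest differed in 6690 genes (58.3%), 3098 higher (27.0%) and 3592 lower (31.3%). With that harvest in place of the QC grown next to the mutant, 1059 of 1812 high genes (58.4%) passed in jkd and 49 passed in the opposite direction, and harvest and genotype cannot be told apart there. Across the 11094 genes tested in both genotypes, which share no array, the differences had a Pearson r of 0.906 and a Spearman rho of 0.883. Genes are not independent replicates, and both tissues differ in handling in the same way in each genotype.

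**Figure D5:**
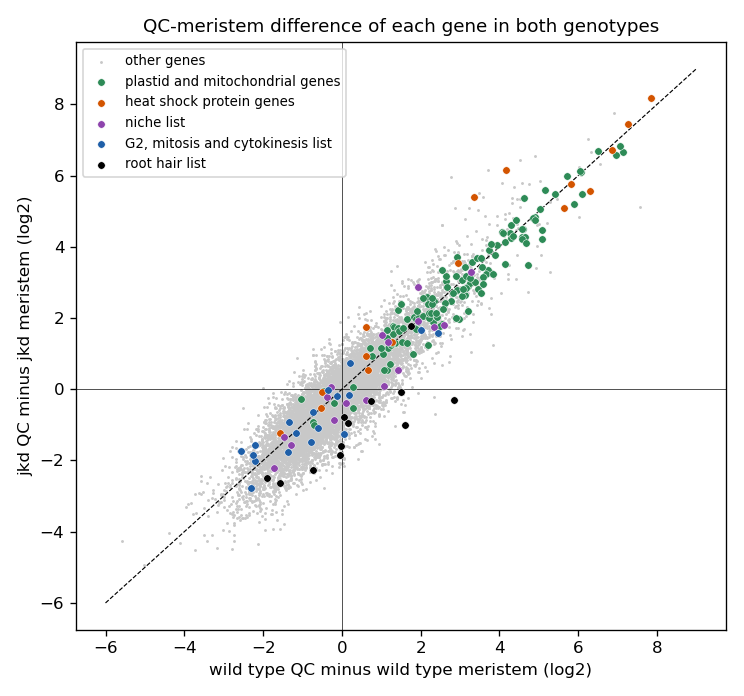
Difference between QC and meristem of each gene in wild type (horizontal) and in jkd (vertical), on the log2(signal + 16) scale, for the 11094 genes tested in both; the dashed line marks equal differences. Organellar genes lie mostly at the upper right near the line. Most heat shock genes also lie at the upper right, with HSP23.6-MITO above the line, while HSP60-2 was lower in the jkd QC. Mitosis genes lie mostly at the lower left, and several root hair genes lie below the line.

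The direct test asked whether the difference between QC and meristem was unlike in jkd and wild type. Over 12 arrays, 0 of 11469 genes (0.0%) passed (limma, lowest adjusted p = 0.0781), and 909 (7.93%) had an unadjusted p under 0.05, 660 with the lower difference in jkd (5.75%) and 249 with the higher (2.17%). With array weights 30 genes passed, with a pseudocount of 1 or 64, 2 and 7 did, and without jkd QC array 1, 2 or 3, 3, 5 and 2 did. With the separate wild type QC harvest 2208 passed, where harvest and genotype cannot be told apart. Only 39 genes (0.34%) had QC arrays all above the meristem arrays in one genotype and all below them in the other. IAA4 was among the genes that passed in opposite directions, with 81.53, 61.89 and 59.09 in the jkd QC under 185.99, 112.52 and 169.99 in the jkd meristem (-1.03 ± 0.33). In wild type it was higher in the QC (0.83), and the jkd call was lost after quantile normalization (-0.77) and without jkd meristem array 1 (-0.90) or 3 (-0.96). The test between genotypes gave IAA4 -1.86 ± 0.41 (adjusted p = 0.169, limma).

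The 13 genes with the smallest adjusted p, all 0.0781 (limma), include RD29A, a gene induced by drought and cold. RD29A was high in both QC groups, 11144.26, 9574.15 and 8412.74 in jkd and 9326.4, 4631.81 and 8517.01 in wild type. Its meristem levels differed, at 332.72, 331.06 and 163.85 in jkd and 13.65, 29.67 and 25.03 in wild type, so the difference was 5.11 in jkd and 7.56 in wild type. AT3G17090 gave 595.72, 725.56 and 726.7 in the jkd meristem and 0.47, 0.62 and 0.53 in the wild type meristem, with 312.26, 519.09 and 435.85 and 35.28, 52.15 and 158.82 in the QC of each. AT3G17110, on chromosome 3 with 6 genes between them, gave 654.66, 1198.62 and 736.83 in the jkd QC against 13.46, 18.8 and 34.15 in its meristem, and 38.62, 13.82 and 57.12 in the wild type QC. AT4G35380 was lower in the jkd QC, at 1.57, 4.23 and 19.76 against 333.38, 327.2 and 362.67, than in the wild type QC, at 78.08, 59.87 and 69.9 against 259.78, 218.93 and 230.74. AT1G33055 was higher in the jkd QC, at 1909.16, 629.17 and 1000.92 against 0.6, 1.39 and 2.05, than in the wild type QC at 226.48, 134.04 and 62.62. With array weights RD29A (-2.51), AT3G17090 (-3.44), AT4G35380 (-2.40), AT3G17110 (2.91) and AT1G33055 (3.54) were among the 30 genes that passed the test between genotypes.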

How the data were processed

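Per the submitters' processing notes, the authors made the values with MAS5, and they deposited linear signal intensities, with 1 value for each probe set on each array. The sources used here do not give the MAS5 version, its scaling target or detection calls, the array type or the genome build. RNA of sorted protoplasts was extracted with DNase treatment and amplified before labelling, per the labels' protocols. The authors' matrix and the value table held the same numbers (23 columns equal by name, and 3 unnumbered jkd meristem columns equal as a set), so replicate numbers came from the latter.

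Symbols came from the RefSeq gene table of TAIR10.1, which holds 16032 of the 16255 loci. Most of chromosome 2, WOX5 and PLT2 were not analysed here. Signals were tested as log2(signal + 16), which understates changes of weak genes, without further normalization, in probe sets at or above the 30th percentile of the mean. Tests used limma 3.58.1 under R 4.3.3 (lmFit, then eBayes with its trend and robust options), checked on simulated data, with Benjamini-Hochberg adjustment over all genes tested and a threshold of 0.05. Each tissue comparison used its 6 arrays, the test between genotypes 12. The number of arrays limits the precision, and errors after ± are standard errors. Figures used matplotlib 3.10.9.

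Named genes are JKD, SCR and SHR, members of 20 lists that passed, niche and network members that did not, and the 10 highest and 10 lowest differences with a symbol, a mean of at least 100 in the higher group and no overlap between arrays. ARF5, CASP4, SMB, MRH2, PRP1, PRP3, TT4, F3H, AT3G26450, the HSP set and the genes with the smallest adjusted p between genotypes were named after their values were seen. The members and lists were chosen with earlier results of these data known. The cortex list had 0 members on the table. Other pseudocounts, no filter, quantile normalization, the replicate number as a block, plain eBayes, array weights, a fit of 12 arrays, nuclear genes alone, the separate wild type QC harvest and leaving out each array were tried as alternatives.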

Additional observations from a re-analysis of the deposited data

How the results depend on the processing

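Across all settings that kept the 6 arrays, between 5010 and 5879 genes passed in jkd and between 5299 and 6707 in wild type. Leaving out an array gave 3837 to 5587 in jkd and 4328 to 6402 in wild type. The wild type QC-high genes that passed in jkd numbered 1059 to 1547 across settings and 1259 to 1501 without an array. The test between genotypes, with 0 genes in limma, gave 2 with a pseudocount of 1, 7 with 64, 30 with array weights, 2208 with the separate wild type QC harvest and 0 to 5 without an array. The cause was not tested. The JKD level, jkd minus wild type, was -3.42 in the QC and -4.11 in the meristem with a pseudocount of 1, and -0.98 and -1.75 with 64, and -2.64 in the meristem after quantile normalization. Without an array it ranged from -2.31 to -1.69 in the QC and from -3.03 to -2.83 in the meristem.

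Of 172 genes followed, 157 passed, 114 of them in every alternative in which they passed the filter on low values, and 0 of these changed direction. Genes that did not pass did so in places. SCL23 turned to 0.09 after quantile normalization and ranged from -0.15 to 0.05 without an array. SNE ranged from -0.26 to 0.12 without an array, turning to 0.12 without jkd QC array 3 and to 0.05 and 0.02 without jkd meristem array 1 or 2. CLE40 ranged from -0.10, without jkd meristem array 1, to 0.30. WIP4 turned to -0.06 with a pseudocount of 1 and -0.01 after quantile normalization, and ranged from -0.08, without jkd meristem array 2, to 0.49.

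Deviations of same-numbered QC and meristem arrays correlated at 0.001, 0.019 and 0.004 in jkd and at -0.133, -0.093 and 0.005 in wild type. These values show no clear shared effect of the replicate number, but they cannot show whether the arrays were paired. With the replicate number as a block, 5384 genes passed in jkd, 5353 in wild type and 0 between genotypes (limma), and 1498 QC-high genes passed in jkd.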

Other observations

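Of the 13 genes with the smallest adjusted p between genotypes, several have no symbol. AT3G26460 gave 1340.82, 1118.51 and 1781.21 in the jkd QC and 185.18, 179.47 and 275.49 in the wild type QC, with at most 5.57 in any meristem array of either genotype. It lies on chromosome 3 with 0 genes between it and AT3G26450, which passed the test between genotypes with array weights (2.06 on the log2 scale), as did AT3G26460 itself (2.31). AT1G72180 was lower in the jkd QC, at 10.43, 26.93 and 4.88 against 69.77, 52.74 and 80.69, and higher in the wild type QC, at 112.91, 185.7 and 123.09 against 53.6, 65.42 and 73.21, and it also passed with array weights (-2.35). The flavonoid synthesis genes TT4 and F3H were also among the 30 genes that passed with array weights.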
